A study of Mus musculus with 2 samples.

Results

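The laminins and integrins are 37 of the 43346 mouse genes measured in the neural tube libraries, and 37 of the 21474 that are annotated as protein-coding. They were taken by symbol and matched by Ensembl identifier: every protein-coding gene named as a laminin α, β or γ chain (11 genes) and every one named as an integrin α or β subunit (26 genes). The laminins comprise 5 α, 3 β and 3 γ chains, and the integrins 18 α and 8 β subunits. The rule goes by symbol alone, but the families were picked with earlier results on these data known.

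Total RNA was taken from neural tube, the embryonic structure that becomes brain and spinal cord, of healthy B6NCrl mouse embryos at 12.5 days. The design holds 1 group with 2 biological replicates. Replicate 2 pooled 88 embryos and replicate 1 pooled 120, males and females together, and both pools carry the same donor identifier. Each library started from 10 ng of RNA above 200 nucleotides, with spike-in RNA added. With no second tissue, stage or treatment, the comparisons are between members of the families and between the 2 libraries, and no p-value is given.

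Laminins are secreted proteins, each a trimer of an α, a β and a γ chain. They are part of the sheet at the base of epithelia, around vessels and on the outer surface of the neural tube. Integrins are cell-surface receptors, each a pair of an α and a β subunit, that bind laminin or other matrix proteins outside the cell and link them to the actin cytoskeleton inside. In the neural tube, the end-feet of progenitor cells rest on the laminin sheet and hold it through integrins and dystroglycan.

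Depth was 34555002 expected counts (estimated reads) in replicate 2 and 32612423 in replicate 1, of which 33530172 (replicate 2) and 31610805 (replicate 1) fell on mouse genes. The 37 genes held 41471 expected counts, or 0.124% of gene counts, in replicate 2, and 36562, or 0.116%, in replicate 1. Markers of neural progenitors and of neurons, 10 genes each, were all detected, the lowest being Pax6 at 20.4 ± 1.03 TPM and Syt1 at 35.8 ± 2.06 TPM. The highest were Fabp7 (1503 ± 48.2 TPM) and Vim (962 ± 35.9 TPM) among the progenitor markers, and Tubb3 (1017 ± 18.9 TPM) and Nefl (658 ± 82.9 TPM) among the neuron markers. Markers of vessels, blood, muscle and skin were also detected, and their values stand beside the members known from those cell types. No marker in those lists was listed at 0. Levels are deposited TPM values, a transcript abundance corrected for length and depth, and are given as mean ± SD over both libraries (n = 2). In whole tissue, fewer cells of a type and less RNA per cell cannot be told apart.

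Members of both families were present in the tissue, from Itgb1, the common integrin β subunit, at 137 ± 10.2 TPM to 2 leukocyte integrin genes near 0. A gene was called detected where both libraries had at least 1 TPM, and 24 of the 37 genes (64.9%) were, against 62.1% of all protein-coding genes. The share is close to that background. Of the laminins 8 of 11 were detected, and of the integrins 16 of 26, as 11 of 18 α and 5 of 8 β subunits. A further 4 genes, Itga2, Itgam, Itgb4 and Itgal, reached 1 TPM in replicate 1 only, and 9 stayed under it in both libraries.

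The laminin genes had a median of 7.57 TPM in replicate 2 and 7.25 in replicate 1. The integrin genes had a median of 3.21 TPM in replicate 2 and 2.85 in replicate 1. On the log2(TPM + 1) scale the median laminin stood 1.07 ± 0.05 above the median integrin, a difference larger than that between the libraries (1.03 in replicate 2 and 1.10 in replicate 1). The quartile ranges of the members overlapped, 1.45 to 26.1 TPM for laminins and 0.960 to 7.94 TPM for integrins. All protein-coding genes had a median of 5.58 ± 0.110 TPM, which lay between both families.

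**Figure D1:**
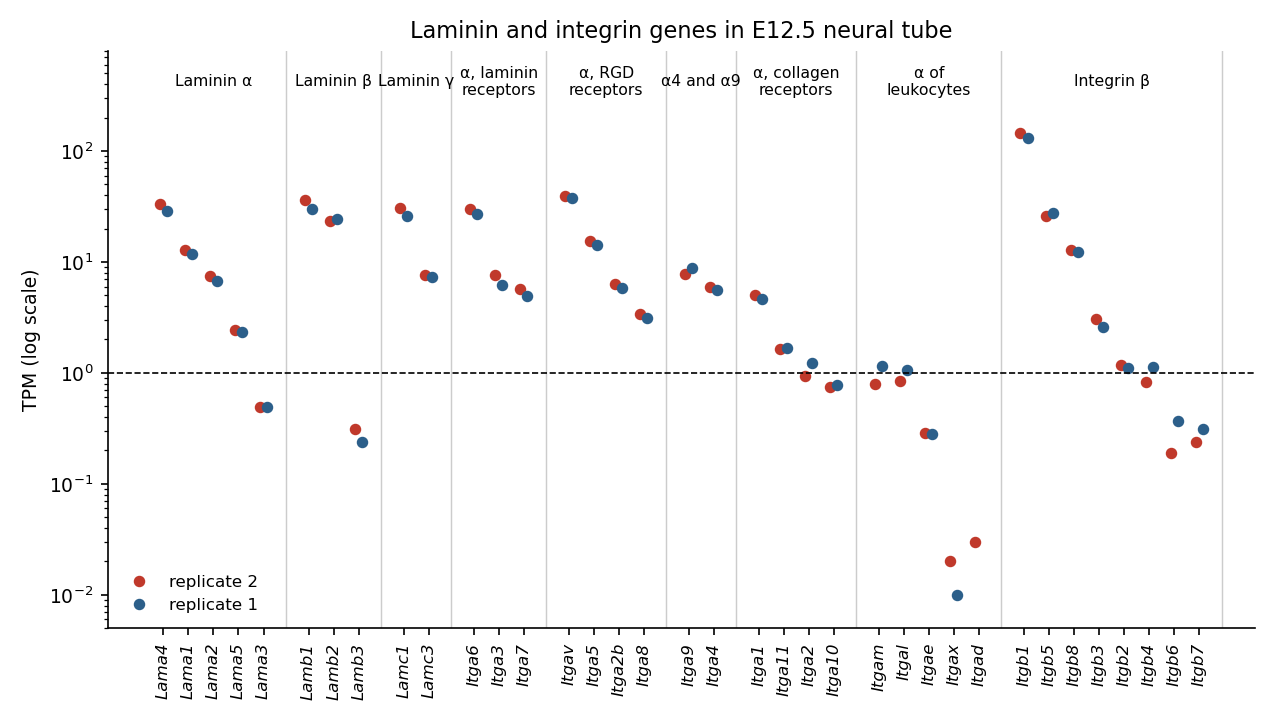
Level of laminin and integrin genes, grouped by role, in TPM on a log axis; each point is 1 library. Itgb1 stands above all other members at 145 TPM in replicate 2 and 130 in replicate 1, and Itgad, at 0 in replicate 1, is not drawn there.

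Among the laminin α chains, which carry the domains that receptors bind, Lama4, the chain best known from vessel walls, was highest. Lama4 (ENSMUSG00000019846, chr10:38965515-39110188; all coordinates are on GRCm38) had 33.6 TPM in replicate 2 and 28.7 in replicate 1. Lama1 (chr17:67697259-67822647), the α chain of the first embryonic basement membranes and of neuroepithelium, had 12.9 TPM in replicate 2 and 11.8 in replicate 1. Lama2, the α chain of muscle and Schwann cell basement membranes, had 7.47 TPM in replicate 2 and 6.70 in replicate 1. The values of these 3 genes did not overlap, so their order was the same in both libraries.

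Lama5, a broadly used epithelial and vascular α chain, stood at 2.38 ± 0.0495 TPM, of which 1.02 ± 0.00707 TPM came from transcripts with most of the coding length. Lama3, the α chain of skin hemidesmosomes, had 0.49 TPM in both libraries. Of the summed α-chain level, Lama4 made up 58.2 ± 1.23%, Lama1 23.1 ± 0.667%, Lama2 13.3 ± 0.174%, Lama5 4.46 ± 0.308% and Lama3 0.920 ± 0.0828%. The endothelial markers, set beside Lama4, were detected in 10 of 10 cases, led by Cldn5 (46.3 ± 1.67 TPM) and Esam (31.3 ± 0.403 TPM), and summed to 223 TPM in replicate 2 and 209 in replicate 1. Their part in the Lama4 level was not tested.

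The β and γ chains were each led by their common form. Lamb1 (chr12:31265234-31329644), the β chain of most embryonic laminins, had 36.1 TPM in replicate 2 and 30.0 in replicate 1. Lamb2 (chr9:108479736-108490530), the β chain of synaptic, kidney and vascular laminins, had 23.6 TPM in replicate 2 and 24.2 in replicate 1. Lamb1 was above Lamb2 in both libraries, and its share of the summed β-chain level was 60.2% in replicate 2 and 55.1% in replicate 1. Lamc1 (chr1:153218922-153332786), the γ chain that nearly all laminins share, had 30.5 TPM in replicate 2 and 26.1 in replicate 1, or 78.0 ± 1.67% of the summed γ-chain level. Lamc3, a γ chain known from the pial surface of the developing brain, stood at 7.41 ± 0.226 TPM.

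Lamb3, a β chain that pairs with Lama3 in skin, stood at 0.275 ± 0.0495 TPM. All 10 epidermal markers were nonetheless detected, led by Krt5 (11.0 ± 0.509 TPM) and Krt14 (9.17 ± 0.608 TPM), and summed to 54.4 TPM in replicate 2 and 53.0 in replicate 1. Their part in the values of Lama3 and Lamb3 was not tested.

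Summed by chain class, β chains held 38.6% of all laminin TPM in replicate 2 and 39.3% in replicate 1, α chains 36.4 ± 0.323% and γ chains 24.6 ± 0.177%. By expected counts, where long genes weigh more, the order of α and β chains was the other way round, at 39.1 ± 0.283% for α and 34.7 ± 0.0862% for β. Within the trimers of Lama1, Lama2, Lama4 and Lama5 the lowest chain was the same in both libraries. It was the α chain in the trimers of Lama1, Lama2 and Lama5 with Lamc1 and either Lamb1 or Lamb2. In the trimers of Lama4, the lowest chain was Lamc1 where Lamb1 is the β chain (30.5 TPM in replicate 2 and 26.1 in replicate 1) but Lamb2 where it takes the place of Lamb1 (23.6 TPM in replicate 2 and 24.2 in replicate 1). Whole-tissue RNA does not show which chains share a cell or a trimer.

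**Figure D2:**
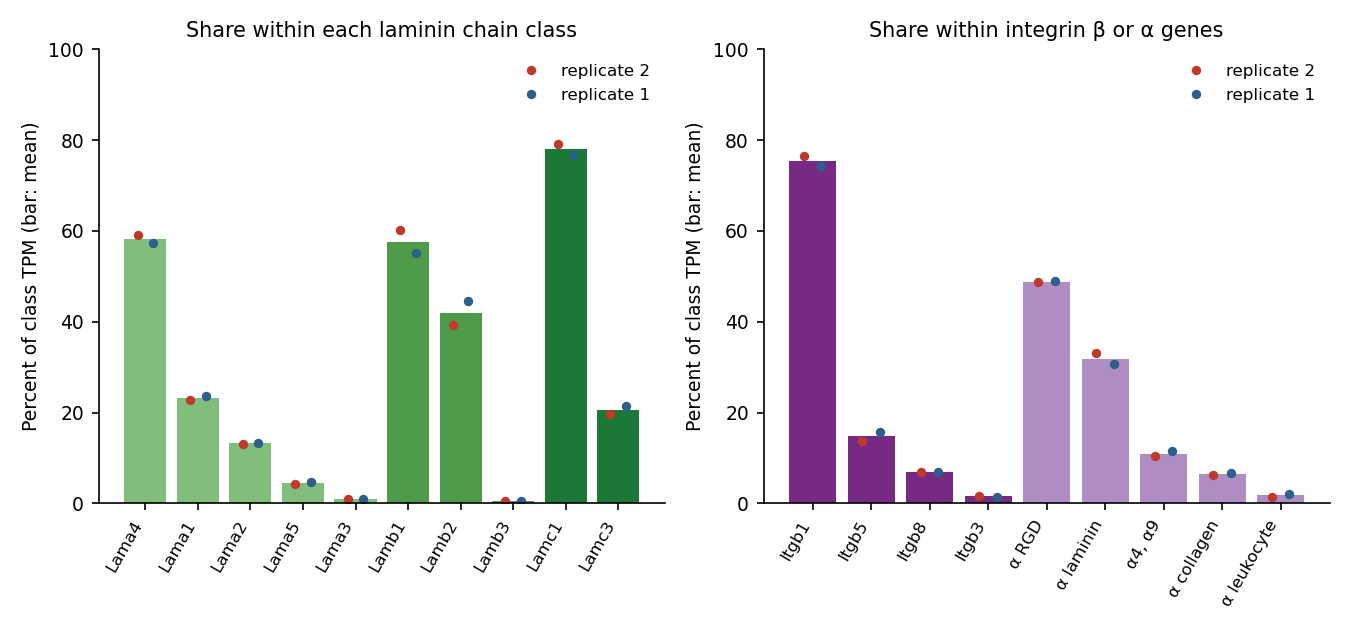
Share of each gene or receptor class in the summed TPM of its chain or subunit class, in percent; bars are the mean of both libraries and points the single libraries, and only the leading genes of each class are drawn. Itgb1 makes up 75.3% of integrin β TPM, Lamc1 78.0% of laminin γ TPM and Lama4 58.2% of laminin α TPM.

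The integrin α subunit takes part in deciding which ligand a receptor binds. Grouped by ligand, the receptors of the Arg-Gly-Asp motif, found in fibronectin and vitronectin, held 48.8 ± 0.203% of the α-subunit TPM, and the laminin receptors 31.9 ± 1.61%. The pair Itga4 and Itga9, which bind VCAM1, fibronectin and tenascin, held 11.0 ± 0.779%, the collagen receptors 6.52 ± 0.259% and the leukocyte subunits 1.76 ± 0.374%. The shares depended on the measure. The Arg-Gly-Asp receptors held 38.6% by expected counts and 41.0% over full-length transcripts, defined further on. The laminin receptors held 30.9% by expected counts and 34.1% over full-length transcripts. Itga4 and Itga9 held 19.0% by expected counts. Over full-length transcripts the collagen receptors held 10.7% and the leukocyte subunits 0.866%. All 18 α subunits summed to 128 ± 5.09 TPM.

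Of the 3 laminin receptors, Itga6 led. Itga6 (chr2:71745616-71858416), the α subunit of the laminin receptors of epithelia and neural progenitors, had 30.2 TPM in replicate 2 and 27.1 in replicate 1. Itga3, a receptor of laminins that carry Lama5 or Lama3 and known from migrating neurons, had 7.64 TPM in replicate 2 and 6.24 in replicate 1. Itga7, the main laminin receptor of muscle fibres, had 5.67 TPM in replicate 2 and 4.89 in replicate 1. Itga6 was above both others in each library, and Itga3 was above Itga7 without overlap.

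Muscle markers, set beside Itga7 and Lama2, were detected in 11 of 12 cases, led by Actc1 (109 ± 30.1 TPM) and Acta1 (55.1 ± 12.6 TPM), and summed to 285 TPM in replicate 2 and 397 in replicate 1. All 11 with a mean of 1 TPM or more were lower in replicate 2, whereas 60.7% of protein-coding genes were higher there. Itga7 and Lama2 were both higher there. The part of muscle cells in these levels was not tested.

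These 3 laminin receptors end in a short tail inside the cell that exists in alternative forms, A and B, made from different last coding exons. The coding letters of those exons are shown because they are what sets the forms apart. They were read from the GENCODE M21 transcripts on GRCm38, 5′ to 3′ on the gene's strand and without the stop codon. Capitals mark the longest run of letters at the same aligned position in the same form of the other gene, Itga6 against Itga3.
Itga6 A: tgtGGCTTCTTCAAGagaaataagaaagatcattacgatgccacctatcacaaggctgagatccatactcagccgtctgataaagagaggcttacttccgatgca
Itga3 A: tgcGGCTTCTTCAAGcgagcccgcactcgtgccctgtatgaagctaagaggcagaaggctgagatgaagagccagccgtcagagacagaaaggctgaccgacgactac
Itga6 B: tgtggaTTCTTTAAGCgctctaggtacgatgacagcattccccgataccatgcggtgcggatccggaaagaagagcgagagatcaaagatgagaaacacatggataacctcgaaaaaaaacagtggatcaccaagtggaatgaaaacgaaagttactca
Itga3 B: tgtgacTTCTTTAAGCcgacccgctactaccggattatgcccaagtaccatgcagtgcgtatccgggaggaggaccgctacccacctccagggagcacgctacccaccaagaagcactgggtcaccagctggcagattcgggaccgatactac

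The A stretches lie at chr2:71853534-71853638 (plus strand, 35 codons, exon 25 of Itga6) and chr11:95046483-95046590 (minus strand, 36 codons, exon 25 of Itga3). The B stretches lie at chr2:71855854-71856012 (plus strand, 53 codons, exon 26) and chr11:95045611-95045763 (minus strand, 51 codons, exon 26). The A forms of both genes were identical at 65 of 108 aligned positions (60.2%), with a longest shared run of 12 bases. The B forms were identical at 92 of 159 (57.9%), with a longest shared run of 10 bases. The capitals fall at the start of each tail, in the membrane-near stretch that integrin α subunits have in common.

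The share of the A form among the A-form and B-form transcripts differed between the 2 genes. The A form of Itga6 (Itga6-201) had 6.61 TPM in replicate 2 and 6.74 in replicate 1, and its B form (Itga6-202) had 8.82 TPM in replicate 2 and 6.78 in replicate 1. The A form of Itga3 (Itga3-201) had 4.78 TPM in replicate 2 and 4.36 in replicate 1, and its B form (Itga3-203) had 1.29 TPM in replicate 2 and 1.41 in replicate 1. The A form therefore made up 77.2 ± 2.25% of both forms in Itga3 and 46.3 ± 4.96% in Itga6, and the libraries of the genes did not overlap. In replicate 2 the A share was 78.7% in Itga3 and 42.8% in Itga6, and in replicate 1 it was 75.6% in Itga3 and 49.9% in Itga6. For Itga6 the forms were near balance in replicate 1, and B was higher in replicate 2. A further Itga6 transcript without a coding sequence, Itga6-203, had 10.7 TPM in replicate 2 and 9.20 in replicate 1. Its span (chr2:71849029-71858416) takes in the places of both tail exons, and it is counted in neither form. How reads were divided among these transcripts was not tested. For Itga7, the single transcript in the tables (Itga7-201) has the B-form ending, 76 codons at chr10:128957621-128957848, identical to Itga6 B at 109 of 228 aligned positions (47.8%).

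**Figure D3:**
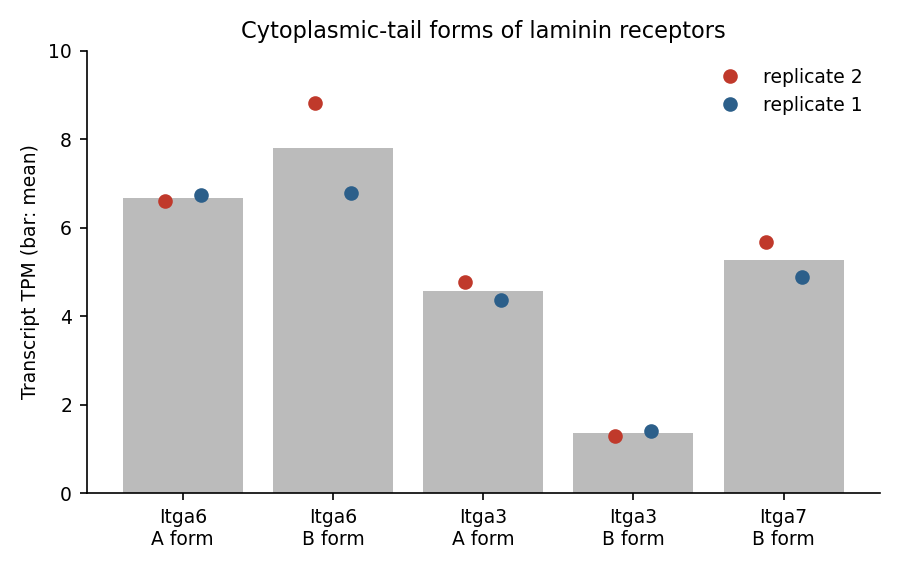
TPM of the A-form and B-form coding transcripts of Itga6 and Itga3 and of the B form of Itga7; bars are means and points single libraries. In Itga3 the A form exceeds the B form in both libraries (4.78 TPM against 1.29 TPM in replicate 2, 4.36 TPM against 1.41 TPM in replicate 1), while in Itga6 both forms lie between 6.61 and 8.82 TPM.

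Among the receptors of the Arg-Gly-Asp motif, Itgav was highest in gene TPM. Itgav (chr2:83724397-83806916), the shared α subunit of the vitronectin receptors, had 38.9 TPM in replicate 2 and 37.8 in replicate 1, most of it on a short transcript described further on. Itga5 (chr15:103344286-103366763), the α subunit of the main fibronectin receptor, had 15.5 TPM in replicate 2 and 14.2 in replicate 1. Itga8, a receptor of nephronectin and tenascin, stood at 3.25 ± 0.184 TPM. Itga2b, the α subunit of the platelet fibrinogen receptor, had 6.32 TPM in replicate 2 and 5.78 in replicate 1. Platelet markers, set beside Itga2b, were detected in 6 of 10 cases, led by Pf4 (43.6 ± 2.57 TPM) and Gp1bb (12.3 ± 1.88 TPM), and summed to 80.5 TPM in replicate 2 and 72.8 in replicate 1. Their part in the level of Itga2b was not tested.

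The remaining α subunits stood below Itgav, Itga6 and Itga5. Itga9 stood at 8.27 ± 0.665 TPM and Itga4, known from neural crest and blood cells, at 5.76 ± 0.226 TPM. Of the 4 collagen receptors, Itga1 had 4.84 ± 0.247 TPM and Itga11 1.66 ± 0.0141 TPM, whereas Itga2 (0.93 TPM in replicate 2 and 1.23 in replicate 1) and Itga10 (0.765 ± 0.0212 TPM) did not reach 1 TPM in both libraries. None of the 5 leukocyte subunits did.

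Of those subunits, Itgam stood at 0.975 ± 0.262 TPM, Itgal at 0.955 ± 0.163 TPM and Itgae at 0.285 ± 0.00707 TPM. Itgax was at 2 expected counts in replicate 2 and at 1 in replicate 1. Itgad had 2 in replicate 2 and 0 in replicate 1, and at the depth of replicate 1 the upper limit for an unseen gene is 0.0949 CPM, by the floor of 3 counts. Macrophage and microglia markers were detected in 11 of 12 cases, led by C1qb (27.9 ± 1.41 TPM) and Fcer1g (19.1 ± 1.44 TPM), and summed to 142 TPM in replicate 2 and 131 in replicate 1. Their part in the leukocyte subunits was not tested.

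In order of level, Itgav lay above Itga6, Itga6 above Itga5, Itga5 above Itga9 and Itga9 above Itga3, each without overlap between libraries. From Itga3 downwards, each of Itga3, Itga2b, Itga4, Itga7 and Itga1 overlapped with a neighbour in the order, so that order is uncertain. Over all 37 genes in order of level, 16 of the 36 neighbouring pairs did not overlap.

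Of the β subunits, Itgb1 (chr8:128685654-128733200), which pairs with the laminin, fibronectin and collagen receptors alike, had 145 TPM in replicate 2 and 130 in replicate 1. It made up 76.5% of the summed β-subunit TPM in replicate 2 and 74.2% in replicate 1. Itgb5 and Itgb8, both partners of Itgav, stood at 26.8 ± 1.04 TPM and 12.6 ± 0.431 TPM. Itgb8 is known from neural progenitors, where it activates latent TGF-β. Itgb3, a further partner of Itgav and the partner of Itga2b, stood at 2.81 ± 0.318 TPM, and Itgb2, the leukocyte β subunit, at 1.14 ± 0.0424 TPM. These 5 lay in this order without overlap between libraries.

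The other β subunits were under the limit in at least 1 library. Itgb4, the partner of Itga6 in skin hemidesmosomes, had 0.82 TPM in replicate 2 and 1.13 in replicate 1. Itgb6, an epithelial subunit, stood at 0.280 ± 0.127 TPM and Itgb7, a lymphocyte subunit, at 0.275 ± 0.0495 TPM. The 12 α subunits that can pair with Itgb1 summed to 123 TPM in replicate 2 and 116 in replicate 1, or 0.873 ± 0.0276 of the Itgb1 level. Several of these also pair with other β subunits.

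The gene TPM of several members rested largely on short transcripts. A transcript is called full-length here when GENCODE M21 annotates it as protein-coding with at least 80% of the longest coding length of its gene, a definition set after the data were seen. Of Itgav TPM, only 28.1% in replicate 2 and 26.1% in replicate 1 came from full-length transcripts. A transcript of 463 nucleotides and 3 exons at the gene's 3′ end, Itgav-205, held 59.1% of Itgav TPM in replicate 2 and 62.0% in replicate 1. The same transcript held 9.51% of Itgav expected counts in replicate 2 and 10.6% in replicate 1, since TPM divides by length.

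By full-length TPM the order of the α subunits changed. Itga5 stood at 14.9 ± 0.884 TPM, all of it full-length, and Itga6 at 14.5 ± 1.35 TPM. Itga5 has a single transcript in the deposited data and could not fall, whereas Itga6 and Itgav have several. The new order therefore rests in part on which transcripts are listed for each gene. Itgav stood at 10.4 ± 0.757 TPM, below both without overlap, and moved from rank 2 to rank 11 of the 37 genes. The ratio of the 12 α partners to Itgb1 was then 0.528 ± 0.00758. Whether the short transcripts are separate RNA molecules was not tested.

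Shorter transcripts also took much of the TPM of Itga6 and of several laminins. For Itga6, 51.1% of TPM in replicate 2 and 49.8% in replicate 1 was full-length, and the 3-exon processed transcript Itga6-203 held 35.5% in replicate 2 and 33.9% in replicate 1. For Lama4, 63.4% was full-length on average, and the 511-nucleotide retained-intron transcript Lama4-207 held 28.4% in replicate 2 and 26.5% in replicate 1. For Lamc1, 67.6% was full-length on average, and Lamc1-204, of 1447 nucleotides, held 32.3% in replicate 2 and 28.8% in replicate 1. Lama5 was 42.7% full-length on average, Lama2 51.2% and Itga2b 45.8%, with 33.1% of Lama2 TPM on the 643-nucleotide Lama2-206 in both libraries. The 623-nucleotide Itga2b-207 held 44.9% of Itga2b TPM in replicate 2 and 32.6% in replicate 1.

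Lama1, Itga5, Itga7, Itga1 and Itgb3 carried 100% of their TPM on full-length transcripts in both libraries, and Itgb1 99.5% in replicate 2 and 100% in replicate 1. Lama1, Itga5, Itga7 and Itga1 have a single transcript each in the deposited data. Their 100% was thus fixed in advance, and the full-length measure could not lower their TPM. Among the 17 genes at 5 TPM or above in each library, 8 were at 80% or more in both, and Itgav was the 1 under 50% in both. Beside the tail forms of Itga6 and Itga3, the full-length transcripts with at least 20% of their gene in each library were Itgb1-201, Itgb5-202, Itgb8-201, Itga2b-201, Itga4-201, Itga5-201, Itga9-201, Lama1-201, Lama2-201, Lama4-201, Lamb1-201, Lamb2-201, Lamc1-201 and Lamc3-201. Their shares ran from 39.1% for Itga2b-201 in replicate 2 to 100% for Lama1-201 and Itga5-201. By full-length TPM the laminin α chains stood at 19.7 ± 1.99 TPM for Lama4 and 12.4 ± 0.757 TPM for Lama1, and Lama1 made up 33.5 ± 0.734% of the α-chain level. Lama4 was still above Lama1 in both libraries.

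**Figure D4:**
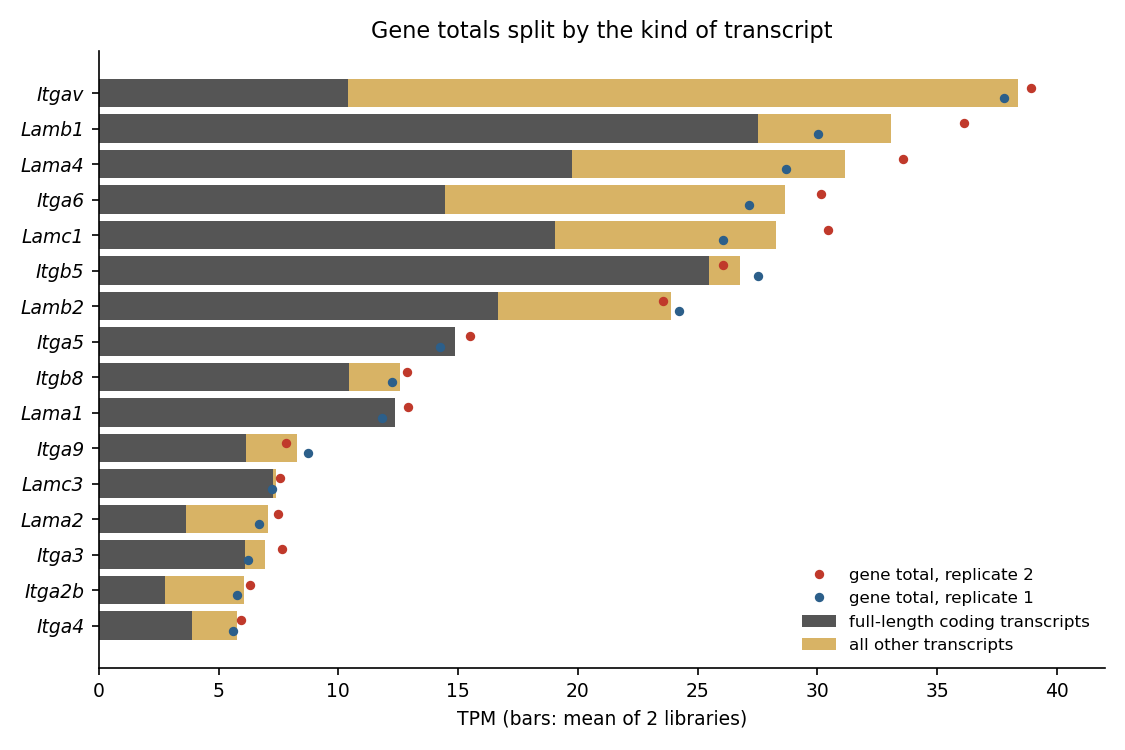
TPM of each gene over all its transcripts and over full-length coding transcripts only, for members at 5 TPM or above in each library except Itgb1, which is left out for its scale; stacked bars are means and points the gene totals of single libraries. Itgav falls to 10.4 TPM over full-length transcripts, below Itga5 (14.9 TPM) and Itga6 (14.5 TPM). Itga5 and Lama1 have a single transcript each in the deposited data, so their bars cannot be split.

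Of the 37 genes, 12 share exonic bases with another annotated gene. No source used here states whether reads were counted by strand. The overlap covered 68.7% of the exonic bases of Itgam (with Gm49368, same strand) and 33.5% of Itga10 (with Gm42957, same strand), so both levels are uncertain. In the other 10 no single gene covered more than 8.60%, and for Itga4 it was 8.04% (with Cerkl, opposite strand).

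The members were compared between the 2 pools beside all other genes. Of the 25 members whose mean reached 1 TPM, 0 differed by more than 2-fold on the log2(TPM + 1) scale, against 0.148% of protein-coding genes and 1.43% of all genes. The members' share is close to the protein-coding background. The median log2 ratio of replicate 2 over replicate 1 was 0.09 for the members, 0.13 for the 8 laminins and 0.09 for the 17 integrins among them, and 0.04 for protein-coding genes. Of the members, 20 of 25 were higher in replicate 2 (80%), against 60.7% of protein-coding genes and 58.5% of all genes. By expected counts scaled to gene counts 17 were higher (68%), against 54.6% of protein-coding genes. Itga2b changed sign between the measures, with a log2 ratio of 0.11 by TPM and -0.20 by expected counts. Lamc3 (0.05 by TPM and -0.01 by expected counts) and Lama5 (0.03 by TPM and -0.02 by expected counts) did so too.

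The deposited credibility intervals, whose level is not stated, were apart in 3 of the 25 members (12%), against 15.9% of protein-coding genes and 14.3% of all genes. The members' share is no higher than this background. The 3 were Itgb1, Lamb1 and Lama1, all higher in replicate 2, with log2 ratios of 0.15, 0.26 and 0.12. Among protein-coding genes near the level of Itgb1 (50 to 200 TPM) the intervals of 21.7% were apart, and near that of Lamb1 and Lama1 (10 to 50 TPM) those of 16.3%. For Itgb1 the interval ran from 138 to 144 TPM in replicate 2 and from 124 to 130 TPM in replicate 1, just under the deposited TPM itself. On expected counts per gene count, the Lamb1 log2 ratio was 0.21 (exact 95% binomial interval 0.14 to 0.27) and the Itgb1 ratio 0.12 (0.08 to 0.16), intervals that cover counting error only. Part of the Lamb1 difference lay in a transcript that M21 does not hold, with 5.70 TPM in replicate 2 and 3.01 in replicate 1. Its full-length TPM was 29.4 in replicate 2 and 25.7 in replicate 1.

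On the log2(TPM + 1) scale, Lamb1 and Itga3 (0.26 each) and Lama4 and Lamc1 (0.22 each) had the largest ratios of the 25 members, all higher in replicate 2. Itga2 (-0.21) and Itga9 (-0.15) were lower there. By expected counts the order differed. The Itga3 ratio was 0.10 (exact 95% interval -0.07 to 0.26), Lama4 had 0.17 (0.09 to 0.25) and Lamc1 0.13 (0.05 to 0.20). Itga2, from 79 counts in replicate 2 and 101 in replicate 1, was farthest from 0 at -0.44 (interval -0.88 to -0.00042). The intervals of Itga6 (0.08 to 0.27), Lama2 (0.03 to 0.32) and Lama1 (0.01 to 0.18) also lay above 0. Outside Lama4, Lamc1, Itga2, Itga6, Lama2, Lama1, Lamb1 and Itgb1, the intervals of the 25 members held 0. The share of all protein-coding genes whose interval excludes 0 was not computed. These intervals therefore do not set the members apart from other genes. Lamb2 (-0.04) and Itgb5 (-0.08) were also slightly lower in replicate 2. Of the 10 markers of neural crest and Schwann cells, led by Fabp7, also a progenitor marker, and Ednrb (118 ± 15.9 TPM), 9 were higher in replicate 2, with a median log2 ratio of 0.26. Of the 10 neuron markers 8 were higher there, with a median of 0.11, and of the 12 macrophage markers 10 were, also with a median of 0.11. Of the 10 progenitor markers 4 were higher there, with a median of -0.02. Of the 10 endothelial markers 9 were higher there, with a median of 0.13, and of the 13 pericyte and meninges markers 7 were, with a median of 0.01. Their part in the differences between the pools was not tested. The background for these lists is 60.7% of protein-coding genes higher in replicate 2, with a median of 0.04.

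**Figure D5:**
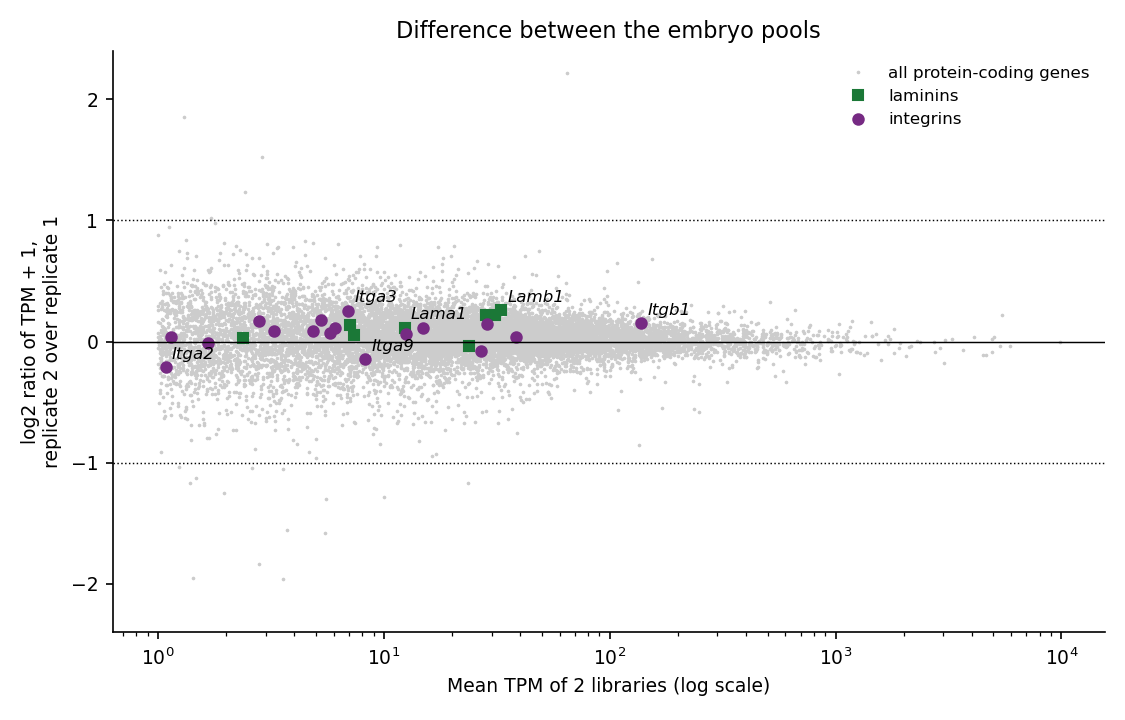
Log2 ratio of replicate 2 over replicate 1 against mean TPM (log axis) for all protein-coding genes whose mean reached 1 TPM in grey, with laminins and integrins in colour. The 25 members lie between -0.21 and 0.26, inside the 2-fold limits drawn as dotted lines.

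Other parts of the matrix and its receptors were measured alongside. Of 20 further basement membrane genes 17 were detected, with a median of 16.0 ± 0.180 TPM. Sparc, a collagen-binding glycoprotein, stood at 478 ± 20.6 TPM and Agrn, a laminin-binding proteoglycan, at 129 ± 9.42 TPM. The genes of the main collagen IV network, Col4a1 (119 ± 6.77 TPM) and Col4a2 (60.9 ± 3.67 TPM), were well above Col4a3 and Col4a4, chains of the mature kidney membrane, at 0.195 ± 0.00707 TPM (Col4a3) and 0.105 ± 0.0212 TPM (Col4a4). The laminin-to-collagen linker Nid1 had 41.6 TPM in replicate 2 and 32.6 in replicate 1. Of the 17 genes with a mean of 1 TPM or more, 13 were higher in replicate 2, and for 9 the deposited intervals were apart. For this and the following 3 lists the background is as above, 60.7% of protein-coding genes higher in replicate 2 and 15.9% with intervals apart.

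Of 20 genes for other laminin receptors and their sugar-adding enzymes 19 were detected, with a median of 18.5 ± 0.410 TPM. Rpsa, a ribosomal protein also described as a laminin receptor, stood at 413 ± 17.5 TPM and Pomgnt1, an enzyme that glycosylates dystroglycan, at 53.4 ± 4.58 TPM. Dag1, which encodes dystroglycan, had 52.4 TPM in replicate 2 and 45.7 in replicate 1, above every laminin and every integrin except Itgb1. Of the 19 with a mean of 1 TPM or more, 12 were higher in replicate 2, and the intervals of 6 were apart.

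Of 24 integrin ligands other than laminins 23 were detected, with a median of 11.8 ± 0.205 TPM, led by the collagens Col3a1 (409 ± 16.1 TPM) and Col1a1 (177 ± 5.18 TPM). Vtn, the vitronectin bound by Itgav pairs, stood at 93.6 ± 3.87 TPM, and Fn1, the fibronectin bound by Itga5 with Itgb1, at 66.0 ± 0.651 TPM. Madcam1, a ligand of lymphocyte integrins, had 1.43 TPM in replicate 2 and 0.61 in replicate 1. Of the 24, 16 were higher in replicate 2, and the intervals of 6 were apart.

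Of 29 adaptors and kinases that bind integrin tails or act beside them 28 were detected, with a median of 26.9 ± 0.898 TPM. Ilk, a scaffold at β-subunit tails, stood at 200 ± 1.94 TPM and Actn4, an actin cross-linker, at 141 ± 3.75 TPM. Ptk2, the focal adhesion kinase, stood at 57.1 ± 4.58 TPM, whereas its relative Ptk2b was the 1 gene under the limit, at 0.705 ± 0.0212 TPM. Of the 28 with a mean of 1 TPM or more, 20 were higher in replicate 2, 7 were lower and 1 was equal, and the intervals of 3 were apart.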

How the data were processed

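The authors deposited gene and transcript tables for each library, with expected counts (estimated reads, which need not be whole), TPM, FPKM and credibility bounds, per the file headers. Percent values, also deposited, state how much of a gene's TPM falls on each transcript. Per the deposited read-me text, reads were aligned to the transcriptome of mm10 with GENCODE M4. The program and the strand setting of the counting are not given in the sources used here. Per its title, a later series supersedes this one. The later one was not analysed here.

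Of 69691 rows, 43346 were mouse genes, of which 42462 were matched by identifier to GENCODE M21 on GRCm38 (the same assembly). Names, coordinates (1-based), exons and coding lengths are those of M21, which holds 177 of the 181 member transcripts in the tables. The 4 others held 1.29% of the members' TPM in replicate 2 and 0.835% in replicate 1. Coding lengths defined full-length transcripts (64 of 181).

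Ratios are replicate 2 over replicate 1 on log2(TPM + 1), which understates differences of low genes, for genes whose mean reached 1 TPM. The floor of 3 counts equals 0.0895 CPM in replicate 2 and 0.0949 CPM in replicate 1. Count ratios have exact (Clopper-Pearson) 95% intervals. Reads carry no molecular identifiers here, so these intervals and the floor hold counting error alone. TMM (edgeR 4.0.16) factors were 1.003 in replicate 2 and 0.997 in replicate 1, and DESeq2 1.42.0 size factors 1.03 in replicate 2 and 0.969 in replicate 1, on expected counts rounded to whole numbers. Other steps used Python 3.11.15 with pandas 2.3.3, numpy 2.4.6, scipy 1.17.1 and biopython 1.88. Of these, only the step that computes ratios between the libraries was tested on simulated data. With 1 group, no p-value was computed. Whether the pools are separate litters is not given in the labels.

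All members are named, except for an item that is not reported here. Of other lists, the 2 highest genes are named (pericyte and meninges: Col3a1 and Col1a1), and of members with at least 5 TPM in both libraries the transcripts with at least 20% of their gene; further genes (Pax6, Syt1, Col4a1 to Col4a4, Nid1, Dag1, Vtn, Fn1, Madcam1, Ptk2 and Ptk2b) were chosen after their values were seen. The members and lists were chosen with earlier results of these data known. The erythroid list (10 of 10 genes detected, median 21.8 ± 1.14 TPM, highest Hbb-y and Hba-a2, the last with near-identical copies, so its level is uncertain) was not set beside any member. Alternatives tried were the detection limit, the pseudocount, the filter, the posterior mean TPM, FPKM, expected counts, both scalings and each library alone.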

Additional observations from a re-analysis of the deposited data

How the results depend on the processing

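Of the 67 alternative values computed, 19 moved beyond the tolerance set and 48 did not. The 48 include the counts of integrins detected and the members' median log2 ratio, whose changes are given below, so they are not all near-equal values. Neither the median ratio nor the difference of medians changed sign, but by expected counts α chains held more of the laminin level than β chains (39.1% against 34.7%). The full-length alternative, and those on the smaller receptor classes and on members higher in replicate 2, were chosen after the data were seen. Integrins detected numbered 21 at 0.5 TPM, 14 at 2 TPM or by FPKM, 19 by posterior mean, 15 over full-length transcripts and 20 in replicate 1 alone, against 16. The members' median log2 ratio was 0.04 with no filter on low values, against 0.09 with it. By expected counts, where long genes weigh more, Lama1 made up 39.2% of the laminin α level and Itgb1 72.2% of the integrin β level. Over full-length transcripts, Lama1 made up 33.5%, β chains 41.1% and the laminin receptors 34.1% of the integrin α level, and by posterior mean TPM β chains made up 39.9%. The difference of medians, laminins minus integrins, was 1.27 with a pseudocount of 0.1 TPM, 1.37 over members whose mean reached 1 TPM, 1.53 by TMM-scaled CPM and 1.14 over full-length transcripts. Without either replicate, the values lay at 22.7% to 23.6% for Lama1, 38.6% to 39.3% for β chains, 74.2% to 76.5% for Itgb1, 30.8% to 33.0% for the laminin receptors and 1.03 to 1.10 for the difference of medians. The A-form share of Itga3 was 74.0% by posterior mean. The number of members over 2-fold apart was 0 under every alternative run. No paired analysis was possible because the design holds 1 group. With 2 libraries, SDs are rough, and levels near 1 TPM, such as those of Itga2, Itgam, Itgb4 and Itgal, fall on either side of the limit by library.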
